A study of Mus musculus with 104 samples.

Results

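Neural progenitor cells (NPC) carrying a DNA break bait on chromosome 7 were compared after aphidicolin (APH) and after its solvent DMSO. The comparison holds 16 of the 104 junction experiments of the series, namely experiments A to D of each treatment in 2 NPC lines, taken by cell type, bait and treatment from the labels. The NPC were derived in culture from mouse embryonic stem cells (ESC) of mixed C57BL/6/129SVE background, and each of the 4 groups, the DMSO controls included, lacked Xrcc4 and p53 (Xrcc4-/- p53-/-). No APH dose, exposure time, nuclease or differentiation marker is given in the sources used here. The tables hold DNA junctions and no expression, so the cell type rests on the labels. The labels do not say that experiments A to D were separate cultures, so each p-value below measures the spread between these experiments, which may be technical. The series asks whether ESC and NPC made from them carry recurrent DNA break clusters when replication is disturbed.

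APH slows the DNA polymerases that copy the genome, which leaves stretches of DNA unreplicated or broken, a state called replication stress. Long genes that neural cells transcribe are known places where breaks then recur, and many encode synaptic or cell adhesion proteins. Xrcc4 is a ligation factor of classical end joining and p53 stops or kills cells with broken DNA, so cells without both survive with unrepaired ends that are joined by other end joining routes. High-throughput genome-wide translocation sequencing (HTGTS) makes a break at a known place, the bait, and reads the sequence joined to it, the prey; each read is 1 junction between the bait end and a break elsewhere.

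The bait break lay at position 80451956 of chromosome 7 (build mm9, as are all coordinates here). By RefSeq promoter sequences (table build GRCm38.p6) found in the reads, the nearest promoter matched below it was that of Gm30075, at 80383494 to 80383793, and the nearest above it was that of 4930429H19Rik, at 80455016 to 80455315, 3.06 kb away. Below means toward lower coordinates throughout. The bait part of a read ran downward along the minus strand and ended at the kept end above the break. The sequence around the break is shown because distant sites that resemble it are described further on; capitals mark the 22 bases, 18 below the break position to 3 above it, with which those sites were compared.

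chr7:80451930-80451967, plus strand: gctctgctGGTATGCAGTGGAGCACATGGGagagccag

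Junctions differed in how the ends met, and 3 reads into the leading region of chromosome 7 show the kinds. Each sequence begins with bait bases and goes on into prey bases. Nothing is in capitals in a blunt junction; capitals mark 4 bases that fit both bait and prey in the second and 3 bases that belong to neither in the third.

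Blunt, prey at position 98212057, minus strand: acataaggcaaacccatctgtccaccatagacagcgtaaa
4 shared bases, prey at position 98043336, minus strand: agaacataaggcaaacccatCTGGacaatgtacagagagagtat
3 inserted bases, prey at position 98151295, plus strand: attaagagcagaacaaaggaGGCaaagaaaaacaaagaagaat

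The 16 experiments held 331797 junctions, 163092 with APH and 168705 with DMSO, at 10087 to 34970 an experiment. Beyond 5 Mb of the break, the distance outside which break clusters were counted, they held 53208 and 35769 junctions, at 2062 to 11482 an experiment. In line 1 the letters A to C of both treatments shared 1 sequencing run and D another; in line 2 the DMSO experiments A and B were read on another sequencer than the rest, so in that line sequencer and treatment overlap in part. Of the 120 pairs of experiments 9 shared over 1% of the distinct junctions of the smaller one, with a median of 0.226% and a highest value of 5.19%. The highest values were within groups. In line 2, DMSO B and D shared 138 junctions (5.19%) and DMSO A and C 194 (4.59%), and in line 1 APH A and B shared 162 (3.1%). These experiments may not be separate, yet each counts as 1 experiment in the tests below. Experiment C of line 1 stood apart in both treatments: its APH and DMSO libraries shared 166 identical junctions (2.93%), and its values lay nearer to the other treatment than those of A, B and D in several measures below.

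APH moved junctions away from the bait break. Within 10 kb of the break lay 51.7% ± 5.90 of all junctions with APH and 74.6% ± 2.69 with DMSO (SD, n = 8 experiments each). The APH experiments ran from 43.8% through a median of 51.2% to 63.2%, and the DMSO experiments from 71.7% through 73.8% to 79.7%. Every APH experiment was lower than every DMSO experiment, and the highest APH value was that of experiment C of line 1. The difference was -22.9 percentage points, -20.1 in line 1 and -25.7 in line 2 (exact permutation test within line, two-sided, p = 4.08e-04, the smallest that the 4900 arrangements allow, and 6.12e-04 adjusted over 9 shares). Shares add up to 100%, so fewer junctions near the break and more far from it cannot be told apart.

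The gain was largest in proportion close to the bait. Junctions 10 kb to 5 Mb from the break made up 15.3% ± 3.12 with APH and 4.74% ± 0.884 with DMSO. The APH experiments ran from 9.34% through a median of 15.6% to 18.6%, against 3.63%, 5.05% and 6.02%, again with no overlap. In line 1 the 4 APH values were 14.2, 13.8, 9.34 and 13.9% for A to D and the 4 DMSO values 3.66, 3.95, 6.02 and 3.63%, so both C experiments lay toward the other treatment. Without the C pair the difference was 11.5 points in place of 10.6.

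Chromosome 7 beyond 5 Mb held 7.84% ± 1.19 of junctions with APH and 3.62% ± 0.399 with DMSO, and the other chromosomes held 25.1% ± 1.96 and 17.1% ± 1.63. Neither class overlapped between the treatments (5.34 to 9.02% against 2.77 to 4.05%, and 22.1 to 28.6% against 13.9 to 19.02%), and each had an adjusted p of 6.12e-04 in the same exact permutation test. Among the junctions beyond 5 Mb alone, chromosome 7 took 23.7% ± 2.10 with APH and 17.5% ± 0.815 with DMSO, a difference of 6.19 points. With each position counted once per experiment the rise on the other chromosomes shrank to 2.95 points (adjusted p = 0.0584, exact permutation test).

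**Figure D1:**
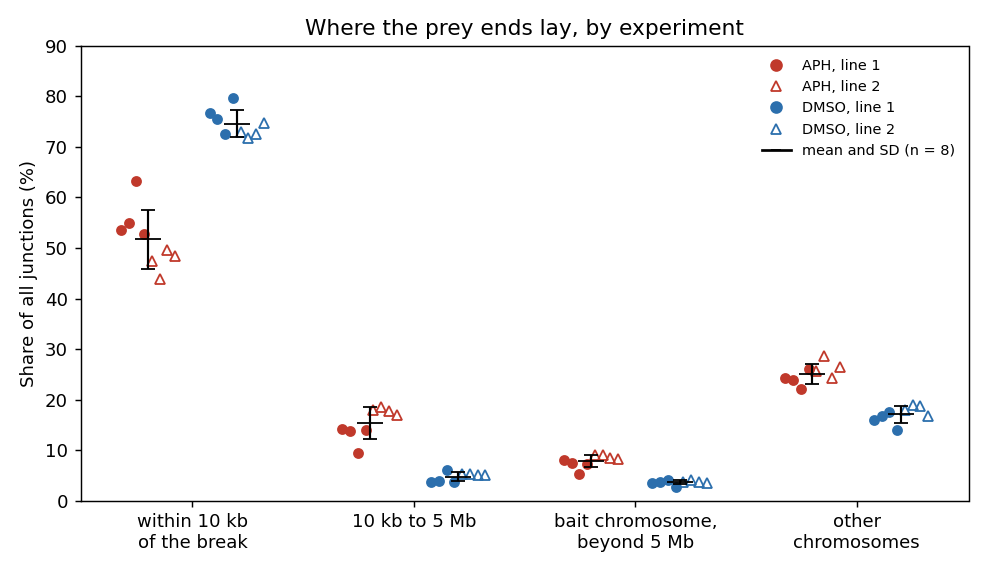
Share of all junctions (%, y axis) in 4 classes of prey position for each of the 16 experiments, filled circles for line 1 and open triangles for line 2, with the mean and SD over 8 experiments in black. In each class the APH and DMSO points do not overlap; within 10 kb APH lies at 43.8 to 63.2% and DMSO at 71.7 to 79.7%.

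Close to the break the treatments differed by side and strand. Junctions below the break and joined on the minus strand, the commonest kind, numbered 360.4 ± 26.6 per 1000 of all junctions with DMSO and 179.7 ± 30.7 with APH at 0 to 2 kb, and 93.5 ± 6.90 and 52.3 ± 12.7 at 2 to 5 kb, with no overlap in either (SD, 8 experiments each). Junctions above the break and on the plus strand were 101.1 ± 5.06 per 1000 with APH and 128.2 ± 11.9 with DMSO at 0 to 2 kb, then 74.3 ± 12.9 and 39.8 ± 5.37 at 2 to 5 kb, so their ratio turned from 0.789 to 1.87. These distance steps carry no test of their own.

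From 10 to 500 kb this class, above the break on the plus strand, was the fullest with APH. At 100 to 200 kb it held 24.5 ± 9.93 junctions per 1000 with APH and 4.58 ± 1.84 with DMSO, a ratio of 5.36, and the experiments ran from 9.08 to 36.4 against 1.62 to 6.45. At 1000 to 2000 kb its ratio was 5.82. Beyond 500 kb the minus strand above the break held more with APH, as at 1000 to 2000 kb (3.18 against 2.64 per 1000). Below the break on the minus strand the ratios were 1.48 at 10 to 20 kb and 1.81 at 100 to 200 kb, and the treatments overlapped there. The promoter of Chaserr, a long non-coding RNA gene next to the chromatin remodeler gene Chd2, was matched 251.3 kb above the break.

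**Figure D2:**
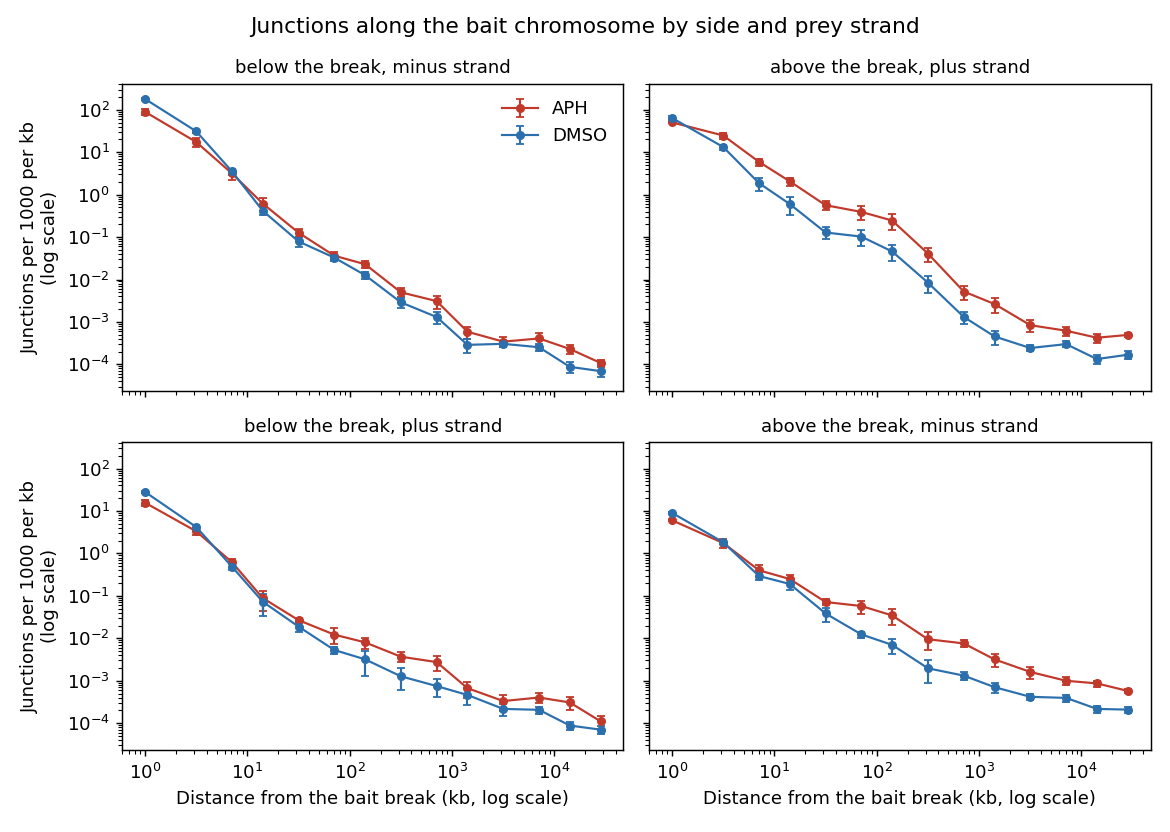
Junctions per 1000 per kb (log scale) against distance from the bait break (kb, log scale), by side and prey strand; points are means and bars SD over 8 experiments. DMSO lies above APH in the steps nearest the break, and APH lies above DMSO further out. Above the break the ratio at 100 to 200 kb is 5.36 on the plus strand and 4.94 on the minus strand.

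Put as shares, 56.3% ± 3.50 of the junctions within 10 kb lay below the break with APH and 72.8% ± 2.13 with DMSO, and 48.5% ± 3.17 and 33.4% ± 2.20 were on the plus strand. Of junctions from 10 kb to 5 Mb, 82.4% ± 4.01 lay above the break with APH and 65.8% ± 4.63 with DMSO. None of these 3 shares overlapped between treatments (adjusted p = 8.16e-04 each, exact permutation test over 10 measures that were chosen after the values were seen). Above the break and beyond 5 Mb on chromosome 7 lay 72.8% ± 1.70 and 66.5% ± 2.53 of the chromosome's distant junctions, also without overlap (adjusted p = 8.16e-04, exact permutation test).

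The extra distant junctions of chromosome 7 were not spread evenly. Of its junctions beyond 5 Mb, 23.2% ± 1.38 with APH and 14.4% ± 1.49 with DMSO lay 10 to 20 Mb from the break, and 33.0% ± 1.77 and 28.5% ± 1.96 lay 20 to 40 Mb away (adjusted p = 8.16e-04 and 0.00218 over 4 classes, exact permutation test). The class over 40 Mb took 28.4% ± 1.13 and 41.1% ± 1.89 (adjusted p = 8.16e-04, exact permutation test). At 5 to 10 Mb the shares were 15.4% ± 1.35 and 16.02% ± 1.31 (adjusted p = 0.362, exact permutation test).

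Counting in 500 kb bins showed where. Of 174 bins with enough junctions to test, APH raised 45 (25.9%) and lowered 14 (8.05%) at an adjusted p under 0.05 (edgeR's quasi-likelihood test with line as a block, Benjamini-Hochberg adjustment); 72 had an unadjusted p under 0.05. On chromosome 7, 21 of 125 tested bins were higher (16.8%) and 5 lower (4%); elsewhere 24 of 49 were higher (49%) and 9 lower (18.4%). A bin off chromosome 7 could reach the count needed for testing through the treatment in which it was high, so the 49% does not describe the genome. In 58 of the 59 called bins the change had the same sign in both lines. The fit that called these bins used both lines, so this agreement is no separate test, and it was not counted over all 174 bins. Nor is the sign in the pools that follow a separate test, since they sum the same counts. With the experiments summed into 2 pools per treatment, 1 per line, all 59 kept their sign and none passed (edgeR adjusted p from 0.0631 to 0.423; 60 bins had an unadjusted p under 0.05), and no change moved by more than 0.24 on the log2 scale. With the total number of junctions beyond 5 Mb as the library size the split was 55 higher and 8 lower, and with the total off chromosome 7 it was 60 and 5. These scalings moved the median log2 change of all tested bins from 0.08 to 0.31 and 0.42.

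Without the 2 line 2 DMSO experiments read on another sequencer, 52 bins were higher and 5 lower of 304 tested. More bins passed the count filter there than the 174 of the main fit, so the counts cannot be compared directly. The 16 fits that left out 1 experiment tested 205 to 218 bins. Neighbouring bins called the same way formed 33 higher regions, 12 on chromosome 7 and 21 on 11 other chromosomes, and 14 lower ones. The higher regions held 11.1% of the junctions beyond 5 Mb with APH and 2.94% with DMSO. In 15 of the 33, 6 on chromosome 7 and 9 elsewhere, every APH experiment exceeded every DMSO experiment; over all 174 tested bins 19 (10.9%) did so and 0 did the reverse. In 30 of the 33 the busiest 1 kb held under 10% of the APH junctions, so the rise was spread over many positions. Levels below are junctions per 1000 junctions beyond 5 Mb, and log2 changes are those of the bin of a region with the smallest adjusted p. Because these regions were chosen by this contrast, their folds are a description.

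The strongest region, at 98 to 99.5 Mb of chromosome 7 and 17.6 Mb above the break, lay between the matched promoters of Me3 and 4632427E13Rik. Dlg2 is the only gene of 500 kb or more that RefSeq lists between them, and it encodes PSD-93, a scaffold of the postsynaptic density. In line 1 the levels of A to D were 23.2, 24.02, 15.97 and 19.7 with APH and 2.72, 4.27, 8.13 and 3.41 with DMSO. In line 2 they were 21.8, 22.2, 23.3 and 17.5 with APH and 1.95, 2.11, 1.64 and 1.49 with DMSO. Each APH experiment was well above each DMSO experiment, and the DMSO level nearest to APH and the lowest APH level both came from experiment C of line 1.

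Over all experiments the Dlg2 region stood at 21.0 ± 2.94 with APH and 3.22 ± 2.20 with DMSO (1103 and 118 junctions at 1191 positions). Its middle bin, from 98.5 Mb, rose by 2.76 ± 0.29 on the log2 scale (SE; edgeR adjusted p = 8.83e-16), and by 3.48 without experiment C of line 1 in either DMSO alone or both treatments. The lines gave 2.09 and 3.76. The junctions formed a broad peak: the fullest 100 kb, from 98.6 Mb, held 153 with APH and 10 with DMSO, and the 100 kb steps with at least 1 junction for every 2 of that peak ran from 98.4 to 99.1 Mb.

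The region with the most junctions, 101.5 to 104.5 Mb, lay between the promoters of Fam181b and Thrsp, where RefSeq lists 2 genes of 500 kb or more, Gm32647 and Tenm4. Tenm4 encodes a transmembrane teneurin that guides neuronal contacts, and its own promoter was matched inside the region at 103359931. In line 1 the levels of A to D were 35.3, 38.2, 25.2 and 33.0 with APH and 9.19, 7.75, 15.4 and 6.32 with DMSO. In line 2 they were 32.7, 32.8, 30.2 and 31.3 with APH and 7.47, 5.34, 9.13 and 7.09 with DMSO. Groups did not overlap, and the C pair of line 1 again lay nearest to each other.

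In all the Tenm4 region held 32.3 ± 3.79 with APH and 8.46 ± 3.09 with DMSO (1708 and 305 junctions), and its bin from 104.0 Mb rose by 2.06 ± 0.25 (SE; edgeR adjusted p = 6.30e-12), by 2.07 in line 1 and 2.05 in line 2. Its peak was narrower than that of Dlg2 and lay above the Tenm4 promoter: the 100 kb from 103.9 Mb held 308 junctions with APH and 48 with DMSO. The promoter of Gm15413 was matched inside that 100 kb, at 103950010. Those of Nars2 and Usp35, at 104099787 and 104480570, lay in the bin from 104.0 Mb. The name Tenm4 is therefore a label of the region and does not assign its junctions to that gene. The 6 bins of the region were all higher, but the weakest, from 102.5 Mb, had a change of 0.75 and an edgeR adjusted p of 0.0419, and it kept the call in only 3 of the 16 fits that left out 1 experiment. The DMSO junctions were fullest in the same 100 kb, from 103.9 Mb, at 1.35 per 1000. At Dlg2 the DMSO level was lower, at 0.280 where APH was fullest. Its fullest DMSO step there, from 98.7 Mb, held 16 junctions (0.449). The step from 97.3 Mb, below the APH peak, held 14 (0.392).

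The strand of the prey changed along both regions. With APH, 19.9% ± 4.42 of the junctions in the lower part of the Dlg2 region were on the plus strand and 44.3% ± 8.00 of those in the upper part (parts divided at the median APH junction, at 98.73 Mb). In the Tenm4 region, divided at 103.83 Mb, the shares were 34.0% ± 5.18 and 59.03% ± 5.52. The upper part had the greater share in 8 of 8 APH experiments in each region (exact sign-flip test over experiments, p = 0.00781, the smallest 8 experiments allow; adjusted p = 0.0156 over 4 tests). With DMSO the shares were 40.1% ± 22.1 and 39.9% ± 29.9 for Dlg2, on 63 and 55 junctions in all, and 38.8% ± 9.13 and 52.7% ± 15.9 for Tenm4 (adjusted p = 1 and 0.0521, exact sign-flip test). This measure was chosen after the values were seen.

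**Figure D3:**
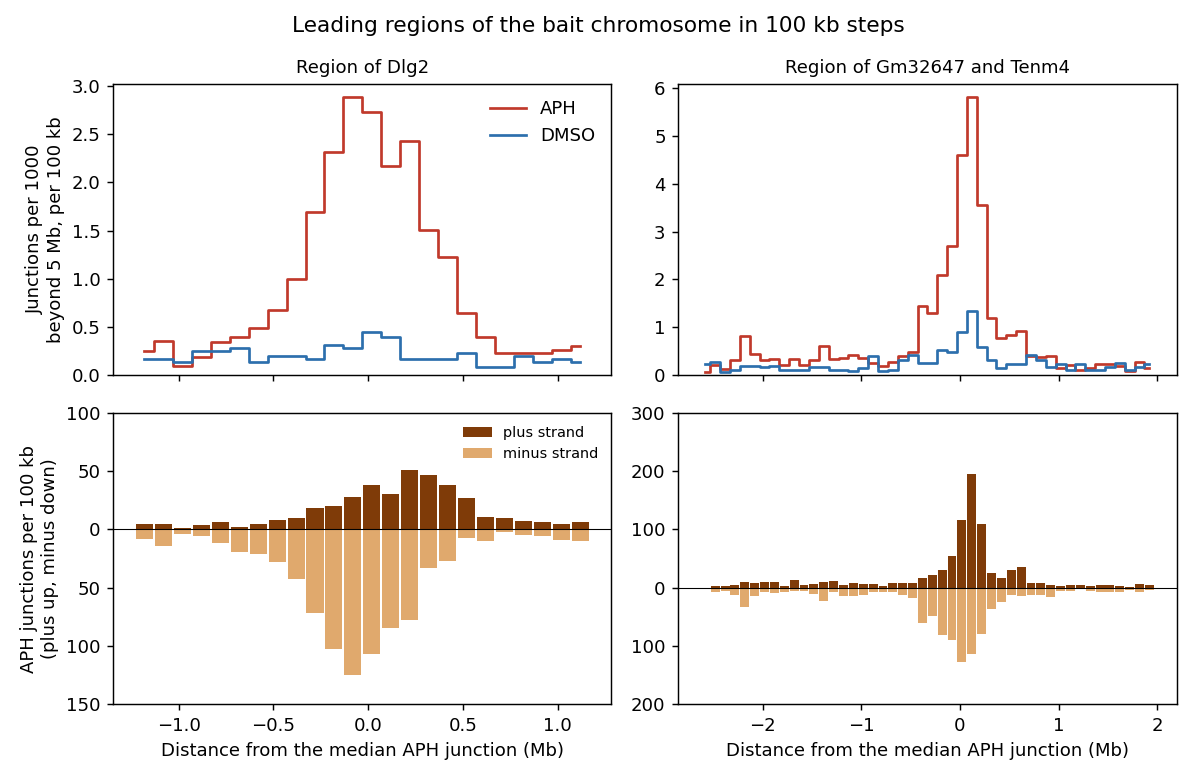
The Dlg2 region (left) and the Gm32647 and Tenm4 region (right) in 100 kb steps against distance from the median APH junction (Mb). Above, junctions per 1000 beyond 5 Mb pooled over 8 experiments a treatment; below, APH junctions by prey strand, plus upward and minus downward: minus strand junctions crowd the lower part and plus strand junctions the upper part.

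The other regions above the break on chromosome 7 rose less. The region from 85.5 to 86.5 Mb, 5.05 Mb from the break, stood at 7.24 ± 2.33 with APH and 3.15 ± 0.593 with DMSO, without overlap (4.62 to 11.3 against 2.28 to 3.75). Its log2 change was 1.42 ± 0.24 (SE; edgeR adjusted p = 6.29e-07). Its second bin, from 86.0 Mb, rose by 0.61 (edgeR adjusted p = 0.0234), a call lost in 11 of the 16 fits that left out 1 experiment and with DESeq2. The long gene RefSeq lists in its interval is Agbl1, but the promoter of Agbl1 was matched at 83374523, far below the region, and 6 shorter genes had promoters inside it, among them Mfge8, which encodes a secreted protein that helps phagocytes take up dying cells. The region from 109.0 to 109.5 Mb held no long gene and was 3.54 ± 0.546 against 1.37 ± 0.538, again without overlap (change 1.14 ± 0.24, adjusted p = 2.84e-05, edgeR). The bins from 89.5, 91.5 and 116.5 Mb rose by 0.81, 0.92 and 0.71 with overlapping groups; the last passed narrowly (edgeR adjusted p = 0.0474). Each of these 3 lost its call in at least 3 of the 16 fits that left out 1 experiment.

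Below the break, 2 of the higher regions lay in a stretch known for imprinted genes. These bins, from 67.0 and 69.0 Mb, rose by 2.13 ± 0.39 and 1.73 ± 0.34 (SE; edgeR adjusted p = 2.16e-06 and 8.62e-06). The bin from 67.0 Mb lay between the promoters of Gabrg3 and Mkrn3, and that from 69.0 Mb between those of Snurf and Mkrn3. In both intervals the only gene of 500 kb or more that RefSeq lists is Snhg14. It is a paternally expressed non-coding transcript that extends from the Snurf-Snrpn locus toward Ube3a. Snhg14 spans 1177441 bases and is also listed in the interval below Ipw, matched at 67022139, so it ends below the bin from 69.0 Mb. The promoters of Ipw and Snurf were matched inside the bin from 67.0 Mb. Without line 2 DMSO A and B the bin from 69.0 Mb rose by 2.48. The bin from 67.0 Mb stood at 1.81 ± 0.329 with APH and 0.291 ± 0.196 with DMSO and did not overlap. The region from 64.0 to 65.0 Mb, with the promoter of the GABA receptor subunit gene Gabrg3 inside it, was 3.38 ± 0.845 against 0.83 ± 0.400, also without overlap (change 1.96 ± 0.42).

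The bin from 57.5 Mb rose by 1.45 ± 0.41 (SE; edgeR adjusted p = 0.00318); Nell1, which encodes a secreted growth and differentiation factor, is the only long gene between its flanking promoters, 5.9 Mb apart. Its levels were 0.182 to 2.30 with APH and 0 to 0.747 with DMSO, so the groups overlapped. The bin from 63.0 Mb rose in line 2 (1.88) and not in line 1 (-0.03), and its pooled change of 0.92 had an edgeR adjusted p of 0.0175. Without the line 2 DMSO experiments A and B it was 0.90 (edgeR adjusted p = 0.0584), and it also missed the threshold without line 1 APH D, line 2 APH B or line 2 DMSO C. The fullest bin of chromosome 7 that was not called, from 87.5 Mb, held 2.74 ± 0.631 and 2.60 ± 0.979.

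On the other chromosomes 21 regions were higher. Their APH levels were 0.825 to 4.37 junctions per 1000, so that single experiments held few junctions. Ctnna2, which encodes the neural alpha-catenin linking cadherins to actin, is the only long gene in the interval around 77.0 Mb of chromosome 6. The levels there were 2.15, 2.03, 0.887 and 3.06 in line 1 and 2.18, 1.28, 0.805 and 2.30 in line 2 with APH. With DMSO 5 of 8 experiments were at 0 and the others at 0.692, 0.248 and 0.747. The change was 2.68 ± 0.44 (SE; edgeR adjusted p = 1.73e-07), and it was 3.33 without experiment C of line 1 with DMSO.

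Prkg1, the gene of a cGMP-dependent kinase, is the only long gene in the interval around 31.0 Mb of chromosome 19. Its bin rose by 2.44 ± 0.46 (adjusted p = 4.88e-06, edgeR), with 87 junctions against 8 and levels of 0.862 to 2.53 against 0 to 0.681. Rbfox1, a neuronal splicing factor gene on chromosome 16 (bin from 6.5 Mb), rose by 2.11 ± 0.43 (edgeR adjusted p = 2.10e-05), with levels of 1.14 to 2.36 against 0 to 0.650. Neither gene's bin overlapped between treatments, and 4 and 5 of the 8 DMSO experiments were at 0. Without the line 2 DMSO experiments A and B the changes were 3.12 for Prkg1 and 3.33 for Rbfox1.

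Sox5, a transcription factor gene of neuron and cartilage development, lay alone in the interval of the bin from 144.0 Mb of chromosome 6, which rose by 2.28 ± 0.53 (edgeR adjusted p = 2.06e-04). Cdh13, which encodes a cadherin anchored to the membrane by lipid, did so for 121.0 Mb of chromosome 8, with 1.34 ± 0.35 (edgeR adjusted p = 0.00106). The DMSO level of Cdh13 was higher than that of the genes before it, 0.599 ± 0.358 against 1.72 ± 0.537 with APH, and its groups overlapped.

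For 4 regions 1 long gene was listed but the flanking promoters were over 5 Mb apart, so the name is less sure. These were Magi2, a synaptic scaffold gene (19 to 20 Mb of chromosome 5, 2.24 ± 0.46), Adgrl3, the gene of the adhesion receptor latrophilin-3 (81.5 Mb of chromosome 5, 2.66 ± 0.60), Pcdh9, a protocadherin gene (93.5 Mb of chromosome 14, 1.87 ± 0.49), and Nell1 above. The second bin of Magi2, from 19.5 Mb, rose by 1.31 (0.25 in line 1 and 2.69 in line 2), a call lost in 7 of the 16 fits that left out 1 experiment and with DESeq2. Adgrl3 and Pcdh9 did not overlap between treatments, at 0.507 to 1.44 against 0 to 0.346 and 0.614 to 2.01 against 0 to 0.534. The change at Adgrl3 was 3.31 without line 1 DMSO C and 3.28 without line 2 DMSO A.

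Elsewhere several long genes shared an interval, and the junctions cannot be given to 1 of them. The bin from 39.5 Mb of chromosome 14, with Nrg3 (a neuregulin) and Grid1 (a glutamate receptor-like protein), rose by 2.90 ± 0.49 (edgeR adjusted p = 4.04e-07) on 87 and 6 junctions. The bin from 68.5 Mb of chromosome 1, with Erbb4 (a neuregulin receptor) and Spag16 (a protein of the ciliary axoneme), rose by 3.06 ± 0.62 on 53 and 3 junctions, and 7 of 8 DMSO experiments were at 0. The bin from 24 Mb of chromosome 3 rose by 3.0 ± 0.57 on 64 and 4 junctions in an interval with Naaladl2, Nlgn1, Egfem1 and Mecom. None of these 3 overlapped between treatments. Without experiment C of line 1 with DMSO, the first and the last had changes of 3.57 and 3.63; at Erbb4 and Spag16 every remaining DMSO level was then 0, so no fold is given.

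Other shared intervals held Csmd1 and Dlgap2 (16.5 Mb of chromosome 8, 2.16) and Gpc5 and Gpc6 (117.5 Mb of chromosome 14, 1.61). In the region from 131.5 to 133.0 Mb of chromosome 5, Auts2 was the single long gene for the bins from 132.0 and 132.5 Mb and shared the interval of the bin from 131.5 Mb with Tmem132d; the leading bin, from 132.5 Mb, rose by 1.15. Among the higher regions off chromosome 7 it had the highest APH level, 4.37 ± 1.12 with APH and 1.72 ± 0.902 with DMSO, on 221 and 65 junctions. Its bins from 131.5 and 132.0 Mb each lost the call in at least 10 of the 16 fits that left out 1 experiment, and its leading bin did so without line 2 APH A (0.95, edgeR adjusted p = 0.0555). Without experiment C of line 1 with DMSO the bin of Gpc5 and Gpc6 rose by 2.55. On chromosome 18, for which no promoter was matched, the bins from 71.5 and 25 Mb rose by 1.76 (2.44 without line 2 DMSO A and B) and 1.29; the second lost its call in 10 of the 16 fits that left out 1 experiment.

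**Figure D4:**
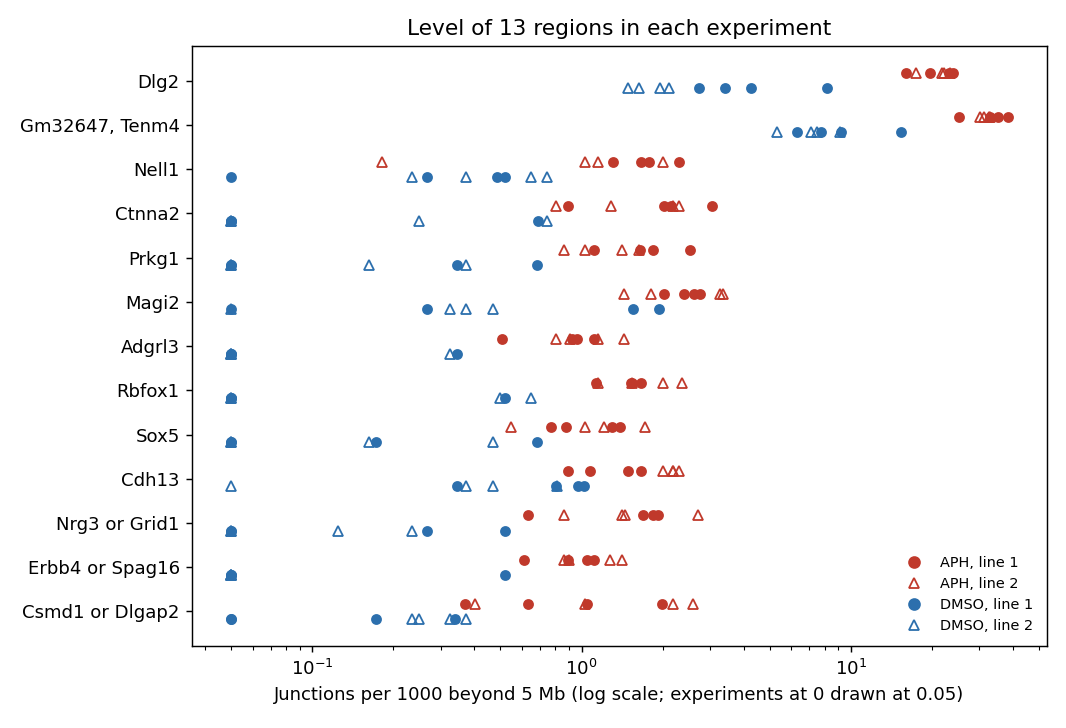
Junctions per 1000 beyond 5 Mb (log scale; experiments at 0 are drawn at 0.05) of 13 regions named by the long gene or genes listed in their intervals, 1 point for each of 16 experiments. APH points lie at 15.97 to 24.02 for Dlg2 and 25.2 to 38.2 for Gm32647 and Tenm4, and between 0.182 and 3.34 for the others, where many DMSO experiments are at 0.

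The shift of strand along a region was not limited to Dlg2 and Tenm4. Of the 21 higher regions off chromosome 7, 17 had a greater plus strand share in their upper part with APH, 11 of them by more than 20 points, and the median difference was 21.4 points. At Cdh13 the shares were 15.9% of 44 and 79.1% of 43 junctions. On chromosome 7, 9 of 12 higher regions had the same order, with a median difference of 9.36 points. Lower regions had this order in 6 of 8 with enough junctions off chromosome 7 (median difference 37.2 points) and in 2 of 2 on it. The 5 of them off chromosome 7 with over 20 points were bins around narrow sites like the bait site, described further on. Their busiest 1 kb held 49.7 to 67.2% of the APH junctions, so the division compares the sides of a narrow site. In the others off chromosome 7 the lower and upper shares were 63.6% and 54.5%, 43.8% and 37.5%, and 37.5% and 40%. The bin from 17 Mb of chromosome 7 also holds a narrow site. These counts carry no test, since the regions share libraries and the measure was chosen after the values were seen.

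Gene lists drawn up for neural and fragile site genes were then set against the bins. The names can be used only where the list's gene is the single long gene between promoters at most 5 Mb apart. Of 27 genes of neural adhesion and synapse, 5 were so placed in a tested bin and 4 of these had a higher bin (Cdh13, Ctnna2, Dlg2 and Tenm4). A gene could have several bins, and could enter the test through the treatment in which it was high, so this count cannot be read against the 25.9% of all tested bins. The fifth, Sdk1, an adhesion molecule of retinal synapses, had a change of 1.01 ± 0.42 and an edgeR adjusted p of 0.0516. A further 6 shared their interval with other long genes and 16 lay in no tested interval. Of 18 genes of neural signalling and transcription, 5 were placed: Prkg1, Rbfox1 and Sox5 had a higher bin, Ptprt a lower one, and Sox6 none (-1.29, edgeR adjusted p = 0.124 in its leading bin). Of 9 common fragile site genes, 2 were placed: Auts2 with 2 higher bins, from 132.0 and 132.5 Mb, and Wwox, an oxidoreductase gene at a well-known fragile site, with a change of 0.22 ± 0.36 (edgeR adjusted p = 0.713). A gene with few junctions in either treatment had no tested bin, so the lists' untested members show nothing about APH.

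The 14 lower regions were of mixed build. In 6 of them the busiest 1 kb held over 35% of the APH junctions and in 7 under 12%, while in 30 of 33 higher regions it held under 10%. A search for 1 kb windows with 40 or more junctions found 15 such narrow sites beyond 5 Mb, a definition set after the values were seen. At 6 of them the sequence, as read in the junction reads, resembled the bait site: 18 to 20 of its 22 bases were identical on 1 of the strands, allowing 1 base less for 3 of them. Of 32851 RefSeq promoters, searched over windows of the same 101 bases on both strands, 73 (0.222%) reached a likeness of 16 net of the gap, 6 reached 17 and 0 reached 18; all 6 sites had 17 or more. These sites are shown against the bait, with the bases identical to the bait's 22 in capitals; in those of chromosomes 4, 11 and 14 the aligned stretch is 1 base shorter. The last of the 6 is not printed.

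chr7:80451930-80451967, plus strand, bait: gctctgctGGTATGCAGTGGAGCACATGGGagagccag
chr1:109162736-109162773, minus strand: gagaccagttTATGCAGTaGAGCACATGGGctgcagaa
chr2:161808221-161808258, minus strand: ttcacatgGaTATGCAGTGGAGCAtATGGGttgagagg
chr4:5697235-5697271, plus strand: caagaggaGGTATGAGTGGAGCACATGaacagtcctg
chr11:113036221-113036257, minus strand: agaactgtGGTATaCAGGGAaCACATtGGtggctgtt
chr14:70753142-70753178, minus strand: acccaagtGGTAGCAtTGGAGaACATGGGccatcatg

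Junctions at these 6 sites lay on both strands and were found in 15 or 16 of the 16 experiments. Together they held 6.55 ± 2.08 per 1000 distant junctions with APH and 13.9 ± 2.80 with DMSO. The APH experiments ran from 3.15 to 9.98 and the DMSO experiments from 11.2 to 18.9, without overlap (exact permutation test within line, p = 4.08e-04, adjusted p = 0.00245 over 6 measures). Per 1000 of all junctions, near ones included, they held 2.12 ± 0.514 and 2.84 ± 0.379 (adjusted p = 0.0049, exact permutation test), so the size of the fall depends on the denominator. The pooled ratio of APH to DMSO was 0.347 at the site on chromosome 1 and 0.868 at that on chromosome 4.

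Of the bins around these sites, 5 were called lower. The bin from 109.0 Mb of chromosome 1 fell by 1.55 on the log2 scale (SE 0.23; edgeR adjusted p = 4.42e-09), that from 113.0 Mb of chromosome 11 by 1.09, that from 161.5 Mb of chromosome 2, in the tyrosine phosphatase gene Ptprt by its flanking promoters, by 0.91, that from 70.5 Mb of chromosome 14 by 0.90 and that from 14.5 Mb of chromosome 18 by 0.88. With the narrow windows left out, the bin on chromosome 2 had a change of -0.39 (edgeR adjusted p = 0.273) and that on chromosome 18 -0.64 (adjusted p = 0.185), that on chromosome 11 kept -0.95 (adjusted p = 0.00369), and the other bins were too empty to test. The other 4 lower regions off chromosome 7, from 3.0 and 120.0 Mb of chromosome 11, 39.5 Mb of chromosome 17 and 166.0 Mb of chromosome X, fell by 0.98, 1.27, 0.84 and 0.75. Their raw counts were 44 and 46, 19 and 29, 64 and 69, and 80 and 77 with APH and DMSO. All lower calls are relative to the junctions beyond 5 Mb, 53208 with APH and 35769 with DMSO. A lower call therefore need not mean fewer junctions as a share of all junctions. The first 3 regions fall outside the rule for named bins and were chosen after their values were seen. These first 3 regions lost the call without line 2 DMSO B (edgeR adjusted p = 0.083, 0.0999 and 0.0999). That from 3.0 Mb also lost it without line 1 DMSO C and that from 120.0 Mb without line 1 DMSO B or line 2 APH C. The bin on X lost it without line 1 DMSO B (-0.52, edgeR adjusted p = 0.143). The lower bins of chromosome 7, from 17, 53.0, 73.5, 118.0 and 134.0 Mb, fell by 0.86 to 1.36. The bin from 118.0 Mb lost the call without line 2 DMSO B (-0.78, edgeR adjusted p = 0.165), and that from 73.5 Mb without line 2 DMSO A or B or line 1 APH C.

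Most lower calls were lost without 2 libraries. Without the line 2 DMSO experiments A and B, 4 of the 14 lower bins kept the call: those from 109.0 Mb of chromosome 1, 113.0 Mb of chromosome 11, 14.5 Mb of chromosome 18 and 166.0 Mb of chromosome X. Another 9 lost it, and the bin from 53.0 Mb of chromosome 7 was too empty to test. On chromosome 7 the adjusted p-values were then 0.0871, 0.626, 0.386 and 0.0731 for the bins from 17, 73.5, 118.0 and 134.0 Mb (edgeR). For those from 161.5 Mb of chromosome 2, 70.5 Mb of chromosome 14, 3.0 and 120.0 Mb of chromosome 11 and 39.5 Mb of chromosome 17 they were 0.0994, 0.0793, 0.25, 0.272 and 0.148 (edgeR).

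Another 6 narrow sites were tandem repeats of a 6-base unit and went the other way. Examples from chromosomes 4 and 11 are shown because they make up 3 of the 33 higher regions. Capitals mark the longest unbroken run of the unit in each.

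chr4:60094586-60094645, plus strand: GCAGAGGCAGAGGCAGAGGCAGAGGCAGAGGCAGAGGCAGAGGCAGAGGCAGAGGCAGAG
chr11:58442243-58442302, minus strand: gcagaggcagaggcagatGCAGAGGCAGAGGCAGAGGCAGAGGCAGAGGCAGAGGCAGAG
chr11:83965599-83965658, minus strand: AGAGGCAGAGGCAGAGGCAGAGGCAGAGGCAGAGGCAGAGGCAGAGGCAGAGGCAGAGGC

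These sites held 6.92 ± 4.14 junctions per 1000 distant junctions with APH and 2.44 ± 2.03 with DMSO (exact permutation test, adjusted p = 0.0114), and the groups overlapped (1.204 to 14.9 against 0.248 to 6.33). In the bins from 60 Mb of chromosome 4 and 58.0 and 83.5 Mb of chromosome 11, the busiest 1 kb held 91.9, 92.7 and 79.6% of the APH junctions, and the changes were 1.91, 1.47 and 1.49. Without the C pair of line 1 the bin on chromosome 4 rose by 3.17. That from 58.0 Mb missed the threshold without line 2 APH D (1.03, edgeR adjusted p = 0.0826) and that from 83.5 Mb without line 2 APH B (1.16, adjusted p = 0.0885).

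The repeat was not confined to these sites. Among all junctions beyond 5 Mb, prey reads with a run of the unit AGAGGC near their start numbered 31.1 ± 13.4 per 1000 with APH and 10.3 ± 7.16 with DMSO (exact permutation test, adjusted p = 0.00735 over the 6 commonest units). The run could start some bases after the junction, so the junction itself need not lie in the repeat. Outside the narrow sites the values were 25.7 ± 10.8 and 8.66 ± 6.14. The unit CCTCTG, the same repeat read from the other strand, numbered 12.5 ± 11.4 and 6.93 ± 5.31 (adjusted p = 0.338, exact permutation test), with 1 APH experiment, D of line 2, at 40.1. The repeats AC and GT numbered 5.96 ± 2.39 against 3.68 ± 1.203 and 4.31 ± 1.63 against 2.55 ± 1.13 (adjusted p = 0.0114 each, exact permutation test). The 2 line 2 DMSO experiments read on another sequencer lay lowest for AGAGGC, down to 1.12 per 1000. Experiment C of line 2, read on 1 run in both treatments, had 9.23 with APH and 10.7 with DMSO. Each letter of line 1 was also read on 1 run in both treatments. There A to D had 32.7, 36.1, 30.1 and 41.7 with APH and 7.13, 11.7, 22.6 and 14.6 with DMSO. Whether read length or mapping in repeats bears on the difference was not tested.

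**Figure D5:**
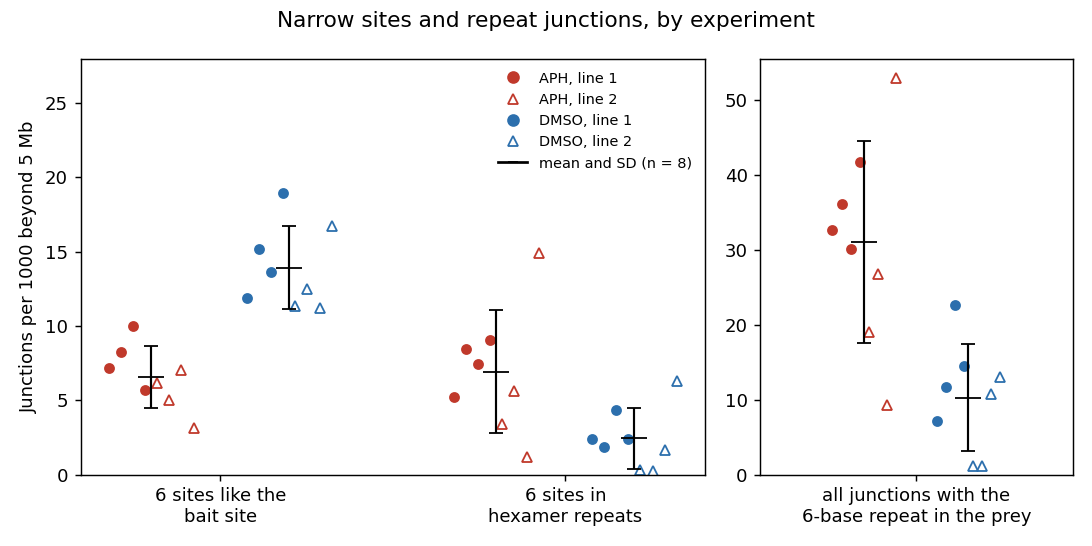
Junctions per 1000 beyond 5 Mb at 6 sites like the bait site and 6 sites in hexamer repeats (left) and at all prey reads with a run of the 6-base unit near their start (right), with mean and SD over 8 experiments a treatment. Sites like the bait run from 3.15 to 9.98 with APH and from 11.2 to 18.9 with DMSO; the repeat classes overlap.

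The make-up of the junctions changed little. Beyond 5 Mb, 25.3% ± 0.747 had 4 or more bases shared by bait and prey with APH and 27.5% ± 0.810 with DMSO, a difference of -2.21 points (exact permutation test, adjusted p = 6.12e-04). Blunt junctions made up 7.07% ± 0.901 and 6.38% ± 0.305 and junctions with inserted bases 16.2% ± 0.980 and 14.9% ± 0.854 (adjusted p = 0.0151 and 0.0116, exact permutation test); the blunt difference was 1.29 points in line 1 and 0.11 in line 2. The bait end had lost more bases with APH, 20.2 ± 1.47 against 16.2 ± 1.54 on average beyond 5 Mb and 18.5 ± 1.62 against 15.3 ± 1.48 within 10 kb (exact permutation test, adjusted p = 0.00136 and 8.16e-04 over the 10 measures added after the values were seen). In all 5 of these measures the groups overlapped.

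Off chromosome 7, 6 of 19 chromosomes changed their share of junctions (exact permutation test, adjusted over 19). Chromosomes 5, 6, 10 and X rose and chromosomes 2 and 11 fell, each by less than 1 point: chromosome 5 took 6.85% ± 0.505 with APH and 5.91% ± 0.563 with DMSO (adjusted p = 0.0357), and chromosome 2 took 7.01% ± 0.338 and 7.71% ± 0.630 (adjusted p = 0.0357, exact permutation test).

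The response to APH differed between the 2 lines in 1 of 174 bins (0.575%). The bin from 106.5 Mb of chromosome 7 had a log2 change of 1.41 in line 1 and -0.93 in line 2 (edgeR, line by treatment term, adjusted p = 0.0175). No bin was called without a filter on low counts, in 250 kb or 1 Mb bins, or in 6 of the 16 fits that left out 1 experiment (line 1 DMSO A or D, line 2 APH B or D, line 2 DMSO A or B). The line term of the leading bins of Dlg2 and Tenm4 did not pass.

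The same cells with a bait on chromosome 12 show which regions do not need the chromosome 7 bait. That set held 15 experiments, since 2 of its libraries listed the same reads and were merged. In a fit of both baits off chromosomes 7 and 12, APH raised 32 of 130 bins with bait 7 (24.6%) and 20 with bait 12 (15.4%), and lowered 15 (11.5%) and 12 (9.23%). The APH effect differed between baits in 1 bin (0.769%), from 38.0 Mb of chromosome 5, which was no named region (difference 5.03 ± 1.38 SE, edgeR adjusted p = 0.0356, on levels of 1.19 and 0.0256 with bait 7 and 0.119 and 0.177 with bait 12). The count was 0 in 13 of the 16 fits that left out 1 bait 7 experiment and 2 in the others, and 0 in 250 kb and 1 Mb bins.

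Several gene regions rose with both baits. At Ctnna2 the log2 changes were 2.56 with bait 7 and 1.82 with bait 12, at Prkg1 2.32 and 1.48, at Magi2 2.11 and 1.81, at Rbfox1 1.98 and 1.51, at Cdh13 1.17 and 1.41 and at Nrg3 and Grid1 2.76 and 1.5, each with an adjusted p under 0.05 for both baits. Other gene regions did not pass with bait 12. The changes were 2.16 and 0.26 at Sox5, 1.73 and 0.17 at Pcdh9, 2.96 and 0.46 at Erbb4 with Spag16, 2.54 and 0.76 at Adgrl3, and 1.51 and 0.81 at Gpc5 with Gpc6 (edgeR adjusted p with bait 12 from 0.235 to 0.813). At the 3 repeat bins they were 1.89 and -1.63, 1.36 and -0.47, and 1.37 and -0.67, again not past the threshold with bait 12. None of these differences between baits passed after adjustment (edgeR adjusted p from 0.216 to 0.884), which does not show that the baits act alike, and gene regions were not tested against repeat sites.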

How the data were processed

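Genomic DNA was taken through LAM-PCR, a linear amplification from the bait side, and HTGTS, per the labels' protocols. The authors' deposited tables list 1 junction read per row, a count of 1 that was not normalized, with prey and bait positions; reads were aligned to mm9 with Bowtie2, per the submitters' processing notes, with no version given. What called and filtered the junctions is not given in the sources used here. A read name was counted a single time in a table, and the experiment letter was taken from the last column.

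Junctions beyond 5 Mb of the break were counted in 500 kb bins. Bins reaching a count of 5, as edgeR's expression filter scales it over the 4 groups, were tested with edgeR 4.0.16 (quasi-likelihood, TMM factors, line as a block, adjusted p under 0.05). Levels are junctions per 1000 junctions beyond 5 Mb. Shares and repeat classes were compared by exact permutation within line, adjusted within each family by Benjamini-Hochberg. Scripts were tested on simulated data. Alternative settings were refitted, with DESeq2 1.42.0 as 1 of them.

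No mm9 annotation was used. Of 32851 RefSeq promoters (GRCm38.p6), 1891 were found in mm9 by exact matches of 40 or more bases in prey reads and 1686 kept their order; genes were named from RefSeq gene order between these. Named bins were all those called on chromosome 7, the 25 called elsewhere with the smallest adjusted p, up to 5 called the other way there, and the 5 fullest on and off chromosome 7; some of these are not reported here. The members, lists and tests were chosen with earlier results of these data known. Counting error alone limits experiments with few junctions, and reads carry no molecular identifier, so a junction can be counted more than once.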

Additional observations from a re-analysis of the deposited data

Results flagged for a closer look

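In 25 of 302 groups of 4 experiments (8.28%) 1 experiment lay far from the other 3. By chance the rule flags about 1 group in 20 where values follow a normal distribution. A group with 3 experiments at 0 is flagged whatever the fourth holds. This was so at Erbb4 with Spag16, Rbfox1, Adgrl3, Ctnna2 and the repeat of chromosome 4. The 8.28% therefore cannot be read against that rate. Experiment C of line 1 stood apart most often. Its share of junctions from 10 kb to 5 Mb was 9.34% with APH (the others 13.8 to 14.2%) and 6.02% with DMSO (3.63 to 3.95%). With APH its blunt share was 8.97% and its bait end within 10 kb had lost 15.6 bases on average. Among the line 1 DMSO experiments it alone held junctions at 4 of these regions. The levels were 0.519 per 1000 for both Erbb4 with Spag16 and Rbfox1, 0.346 for Adgrl3 and 0.692 for Ctnna2. Its hexamer sites held 0.926 per 1000 of all junctions with DMSO.

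Other DMSO experiments stood apart in single measures. In line 1, experiment A had 16.02% inserted junctions, 3.40 GT repeats per 1000 and 4.41 junctions per 1000 at the remaining narrow sites. Experiment B had a blunt share of 5.76%. Experiment D held 2.43 per 1000 at 53.0 Mb and 1.95 at 116.5 Mb of chromosome 7 (the others 0.681 to 0.801 in each). In line 2, experiment A alone held junctions at Adgrl3 (0.325), and experiment C alone at the repeat of chromosome 4 (0.234). Experiment C was at 0 in the bin from 71.5 Mb of chromosome 18 and D at 0 in the region of Auts2, where the others held 1.87 to 2.11. Experiment D had 17.6% plus strand junctions from 10 kb to 5 Mb below the break.

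With APH, line 2 experiment B had 46.1% plus strand junctions on distant chromosome 7. Experiment C had 39.6% above the break and 1.21 per 1000 at 67.0 Mb. Experiment D had 1.44 at 118.0 Mb and 40.1 CCTCTG repeats per 1000 (the others 4.82 to 8.06).

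In a test of the difference itself, the APH effect differed between lines in the bin from 106.5 Mb of chromosome 7 (-2.34, line 2 minus line 1) and between baits in the bin from 38.0 Mb of chromosome 5 (5.03, bait 7 minus bait 12).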

How the results depend on the processing

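Of 45 higher and 14 lower bins, DESeq2 kept 35 and 14 and the total of junctions beyond 5 Mb kept 45 and 8. The lower count was 8 with that total, 5 with the total off chromosome 7, and 5 (of 304 tested) without line 2 DMSO A and B. Without a filter 68 bins were higher and 1 lower of 5102. In 250 kb bins 24 were higher and 13 lower of 94 tested. Line 1 alone gave 16 higher and 3 lower of 100 tested, and line 2 alone 20 higher and 11 lower of 96. The main fit tested 174, so these counts cannot be compared with its own directly. With 2 pools per treatment edgeR called 0 either way, with 60 bins at an unadjusted p under 0.05. Leaving out 1 experiment gave 38 to 53 higher and 13 to 25 lower of 205 to 218 tested. The lower count was 25 without line 1 APH A, 22 without line 2 APH A or B and 24 without line 2 DMSO C. The line by treatment count was 0 to 2 over these fits and 0 without a filter and in 250 kb and 1 Mb bins. The bait count was 0 to 2, and 0 in those settings and with each position counted once. Where edgeR gave 0 for either term, 4 to 378 bins had an unadjusted p under 0.05.

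Deviations in the tested bins showed little correlation between APH and DMSO experiments of the same letter (from -0.121 to 0.0549). This does not exclude linked libraries. Between treatments, A to D of line 1 shared 0.717, 0.622, 2.93 and 1.42% identical junctions with their own letter, and those of line 2 0.696, 0.0707, 0.284 and 0.714%. The median over all pairs was 0.226%. With letters as a replicate block 41 bins were higher and 14 lower, all among those called. The share on other chromosomes differed by 2.95 points with each position once (exact permutation test, adjusted p = 0.0584). The plus strand share differed by -1.23 with 10 Mb left out (adjusted p = 0.0588) and by -1.06 for junctions found in 1 experiment only (exact permutation test, adjusted p = 0.0763). The bin from 63.0 Mb of chromosome 7 was -0.15 in line 1 alone, and the uncalled bin from 87.5 Mb was 0.039 and 0.15 with the 2 totals, 0.35 without a filter and 0.13 without line 2 DMSO A and B. The cause of these changes was not tested. Over all settings, named bins kept sign and call in 1456 cases, lost the call in 253 and reversed in 5. The test per gene was not run, since genes could not be placed exactly. Few junctions per experiment limit the bins off chromosome 7.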
